A study of Danio rerio with 18 samples.

Results

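DEAD and DEAH box RNA helicase genes were described in whole zebrafish embryos. The members were taken from the platform annotation of the array: every gene whose single symbol starts with ddx or dhx followed by a digit, without ddx4. This gave 36 genes, 29 ddx and 7 dhx, of 8793 genes that had a single symbol. They are measured by 51 probe sets, since 11 genes have more than 1, and the probe set with the highest mean over the 18 arrays stands for its gene. Wild-type embryos had received an LNA directed at mir-34, here called anti-mir-34 embryos, or a mock LNA, here called mock embryos. LNA stands for locked nucleic acid, a modified oligonucleotide whose firm pairing with a microRNA keeps that microRNA from its targets. RNA was taken at 1, 7 and 24 hours post fertilization (hpf), which gave 6 groups of 3 biological replicates: anti-mir-34 and mock embryos at 1 hpf, at 7 hpf and at 24 hpf. All groups share the wild-type genotype, injection at the 1 to 2 cell stage and rearing at the same temperature, and no uninjected group was analysed here. The sources used here do not give the number of embryos in a sample, so the spread between replicates may be partly technical. The arrays carry mRNA probe sets, and the block of mir-34 itself was not measured here.

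DEAD and DEAH box proteins use ATP to open RNA duplexes and to move proteins off RNA, and nearly every step in the life of an RNA uses some of them. In the nucleolus they take apart the pairing between small nucleolar RNAs and the ribosomal RNA precursor, in the spliceosome they drive the changes of partner between snRNAs, and in the cytoplasm they act in export, translation initiation and decay. An early fish embryo lives first on RNA laid down by the mother and then starts its own transcription, so that both maternal and zygotic RNA of these genes can be present in a sample. By the roles known from yeast and human cells, 12 of the 36 genes act in ribosome biogenesis, 11 in splicing, 8 in export, translation or decay of mRNA and related RNA steps, and 1 in mitochondria. The 4 others are ddx11, a DNA helicase of sister chromatid cohesion in human cells, and ddx61, dhx32a and dhx57, for which no role is given here.

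Replicates of a group correlated with each other at r between 0.888 and 0.945 over all probe sets, a description across probe sets that share arrays. The labelled ages were checked with marker lists on each array. The median log2 signal of 15 maternal oocyte markers lay between 9.23 and 9.57 in anti-mir-34 embryos and 8.85 and 9.48 in mock embryos at 1 hpf. At 24 hpf it lay between −0.46 and 0.55 in anti-mir-34 embryos and between −0.21 and 3.71 in mock embryos, where the highest value belonged to replicate 2. The 18 markers of differentiated tissue had medians of 9.60 to 9.84 in anti-mir-34 embryos and 9.54 to 9.74 in mock embryos at 24 hpf, and of at most 2.58 at the earlier ages. In whole embryos a lower signal can come from fewer cells that hold the RNA or from less RNA per cell, and these cannot be told apart. Each array had nearly the same distribution of values, so every difference is relative to the other genes of the array. The plot of all members by array shows these values.

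**Figure D1:**
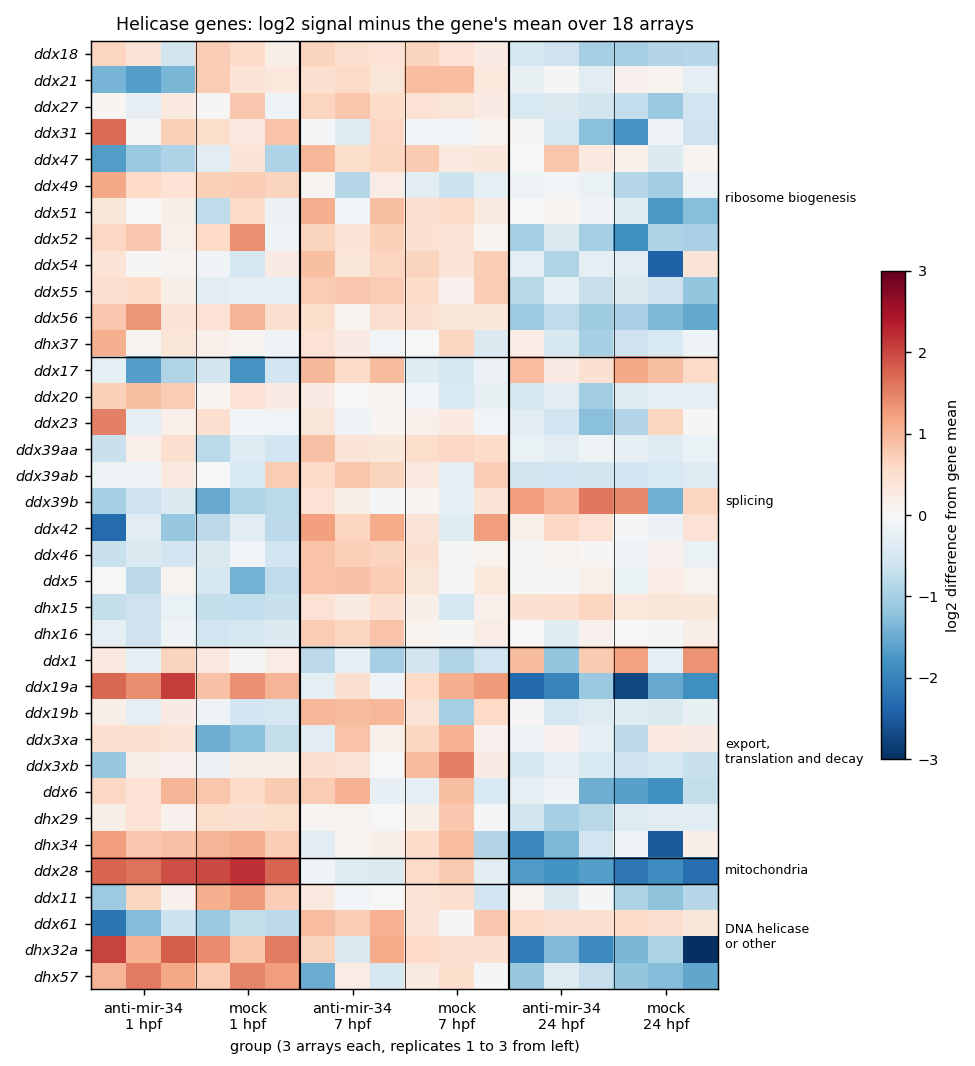
Heat map of 36 helicase genes (rows, by role) on 18 arrays (columns, anti-mir-34 left of mock at 1, 7 and 24 hpf). Colour is the log2 signal minus the gene's mean over the arrays, with the scale ending at 3 in either direction. The low ddx21 values of anti-mir-34 embryos at 1 hpf and the low ddx28, ddx19a and dhx32a values at 24 hpf stand out.

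The comparison of anti-mir-34 with mock embryos asks which genes differ when mir-34 is blocked. At 1 hpf, 2 of the 36 helicase genes passed the test (limma, Benjamini-Hochberg adjusted p below 0.05 over all probe sets). One of them, ddx21, was lower in anti-mir-34 embryos, and the other, ddx3xa, was higher. Among all 8793 genes, 0.512% rose and 1.07% fell, 1.58% together. The median log2 difference was 0.08 over the members and 0.04 over all genes. At an unadjusted p below 0.05 there were 8 members, against 10.6% of all genes. The 3 anti-mir-34 arrays lay wholly above the 3 mock arrays for 4 members and wholly below for 4, and such groups occurred in 7.11% and 6.79% of all genes.

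The gene ddx21 encodes a nucleolar helicase that in human cells acts in ribosomal RNA transcription and processing. At 1 hpf its log2 signal was 6.26, 5.99 and 6.28 in anti-mir-34 embryos, against 8.41, 8.07 and 7.96 in mock embryos. All 3 anti-mir-34 arrays were below all mock arrays, by more than the spread within either group. The log2 difference was −1.97 ± 0.21 (standard error, as after every ± of a difference below), a 3.93-fold lower signal, with an adjusted p of 0.000151 in limma. ddx21 was known from earlier results of these data to differ at 1 hpf. At 7 hpf the signals were 8.14, 8.22 and 8.02 in anti-mir-34 embryos, against 8.58, 8.58 and 7.96 in mock embryos. At 24 hpf they were 7.42, 7.59 and 7.30 in anti-mir-34 embryos, against 7.79, 7.75 and 7.37 in mock embryos. The groups overlapped at both later ages, with differences of −0.24 (adjusted p = 0.656) and −0.20 (adjusted p = 0.999).

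The injection effect on ddx21 at 7 hpf differed from that at 1 hpf by 1.73 ± 0.30 (adjusted p = 0.018 in limma), and ddx21 was the 1 member called in this contrast, against 0.318% of all genes. The corresponding contrast of 24 with 1 hpf was 1.77 ± 0.30 (adjusted p = 0.0548). The test of an injection by age interaction called ddx21 alone among the members (adjusted p = 0.035), against 0.125% of all genes. From 1 to 7 hpf ddx21 rose by 1.96 ± 0.21 in anti-mir-34 embryos (adjusted p = 4.85e-07), while the mock step was 0.22 ± 0.21 (adjusted p = 0.478). The signal of anti-mir-34 embryos was thus low at 1 hpf and within the range of the mock arrays at 7 hpf. When the spread came from these 6 arrays alone, the call at 1 hpf was lost (adjusted p = 0.131 in limma). The difference itself cannot change there, since the group means are the same. The interaction call was lost with a variance model without intensity trend (adjusted p = 0.146) and without any of 10 single arrays (0.0504 to 0.144 without each of them). A single probe set measures ddx21, so no second probe set could be set beside it.

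ddx3xa is 1 of 2 zebrafish genes related to human DDX3X, a helicase of translation initiation. On the probe set used its log2 signal at 1 hpf was 7.79, 7.77 and 7.71 in anti-mir-34 embryos, against 5.82, 6.07 and 6.59 in mock embryos. The anti-mir-34 arrays lay close together and above all mock arrays. The difference was 1.60 ± 0.32 (3.03-fold, adjusted p = 0.0138 in limma). The second probe set gave 4.93, 6.80 and 6.64 in anti-mir-34 embryos, against 5.25, 6.28 and 5.87 in mock embryos, and these overlapped (0.32, adjusted p = 0.967). The third gave 6.38, 5.22 and 5.76 in anti-mir-34 embryos, against 4.54, 4.91 and 4.93 in mock embryos, with all anti-mir-34 arrays higher and no call (0.99, adjusted p = 0.445). The 3 probe sets therefore had the same sign, and the call rests on the brightest of them. With the probe sets averaged the difference was 0.97 (adjusted p = 0.14), and without mock replicate 1 it was 1.43 (adjusted p = 0.076). It was also lost with only the 6 arrays compared (0.201) and without the intensity trend (0.0807).

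At the later ages ddx3xa gave 6.95, 8.15 and 7.45 in anti-mir-34 embryos and 7.95, 8.34 and 7.42 in mock embryos at 7 hpf, and the groups overlapped (−0.39 ± 0.32, adjusted p = 0.639). At 24 hpf it gave 7.15, 7.43 and 7.06 in anti-mir-34 embryos and 6.52, 7.59 and 7.54 in mock embryos. The mock signal rose by 1.74 ± 0.32 between 1 and 7 hpf (adjusted p = 0.000373), and the anti-mir-34 step was −0.24 ± 0.32 (adjusted p = 0.581). The test of the difference between these steps gave −1.98 ± 0.45 with an adjusted p of 0.0597, above the threshold. That difference passed with dim probe sets left out (adjusted p = 0.0416), and without anti-mir-34 replicate 2 of 1 hpf (0.0496), anti-mir-34 replicate 2 of 7 hpf (0.0306) or mock replicate 3 of 7 hpf (0.0266). On the other probe sets it was smaller and not called. On the second, ddx3xa rose in this step in both injections, by 1.12 in anti-mir-34 embryos (adjusted p = 0.0338) and by 1.74 in mock embryos (adjusted p = 0.00315), with a difference of −0.63 ± 0.57 (adjusted p = 0.712). The third gave 0.28 in anti-mir-34 embryos (adjusted p = 0.657) and 1.24 in mock embryos (adjusted p = 0.0504), with a difference of −0.96 ± 0.63 (adjusted p = 0.579). The paralogue ddx3xb gave 7.64, 8.94 and 8.91 in anti-mir-34 embryos and 8.60, 8.95 and 8.98 in mock embryos at 1 hpf, with overlapping groups (−0.34 ± 0.31, adjusted p = 0.892). Its second probe set differed by −1.51 ± 0.53 at 1 hpf, also with overlapping groups and no call (adjusted p = 0.233). The plot of ddx21 and ddx3xa shows these arrays.

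**Figure D2:**
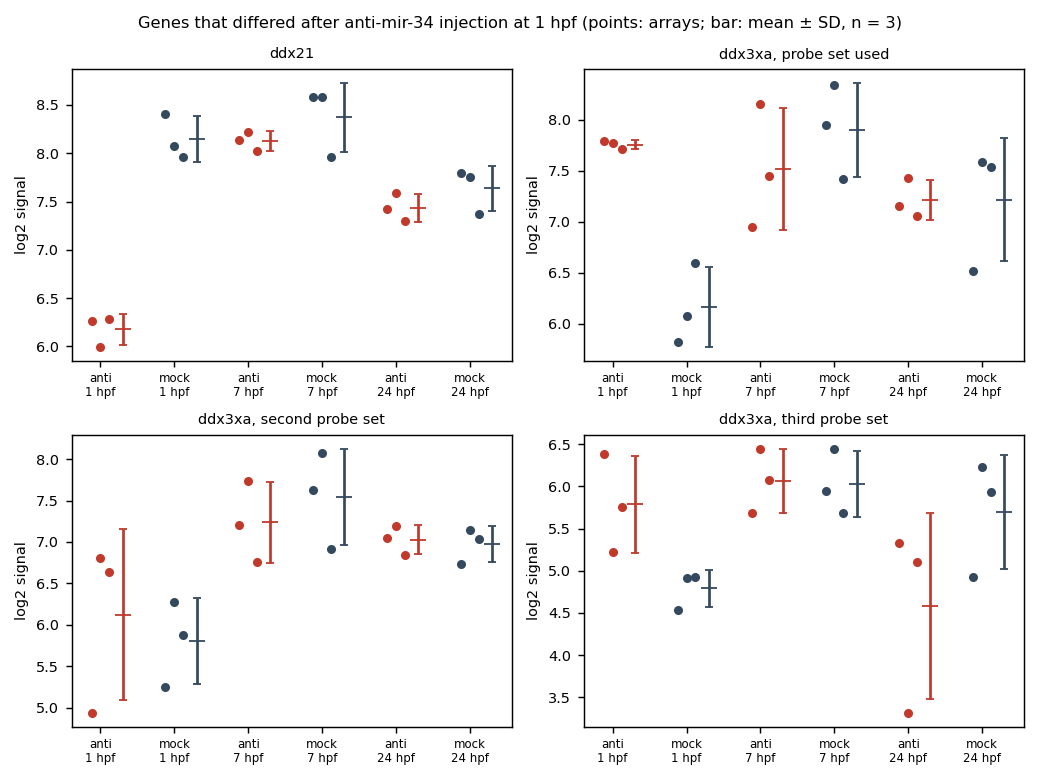
Log2 signal of ddx21 and of the 3 probe sets of ddx3xa on each array (points) with the group mean and SD (bar, n = 3), anti-mir-34 in red left of mock in grey at each age. For ddx21 the 3 anti-mir-34 arrays of 1 hpf sit between 5.99 and 6.28, below the mock arrays at 7.96 to 8.41, and for ddx3xa the probe set used shows higher anti-mir-34 values.

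Other helicase genes at 1 hpf, on the probe sets used, stayed above the threshold. The largest of these differences were in ddx11, with 3.50, 5.23 and 4.72 in anti-mir-34 embryos against 5.65, 5.87 and 5.33 in mock embryos (−1.13 ± 0.39, adjusted p = 0.216), and in ddx47, with 4.26, 4.82 and 5.0 in anti-mir-34 embryos against 5.59, 6.31 and 5.0 in mock embryos (−0.94 ± 0.32, adjusted p = 0.207). DDX47 is the human counterpart of yeast Rrp3, a factor of the small ribosomal subunit. For ddx47 the highest anti-mir-34 array and the lowest mock array both round to 5.0. Leaving out 1 array brought 3 further genes past the threshold: ddx11 (−1.5, adjusted p = 0.0487) and ddx5 (0.93, adjusted p = 0.0388) without anti-mir-34 replicate 2, and ddx39aa (0.92, adjusted p = 0.0271) without anti-mir-34 replicate 1. These were chosen after their values were seen.

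At 7 hpf limma called 0 of the 36 members, against 0.0227% of all genes, and 8 members had an unadjusted p below 0.05, against 14.7% of all genes. The anti-mir-34 arrays lay above all mock arrays for 9 members and below them for 1, where 7.35% and 8.69% of all genes did so. The 9 were ddx17, ddx20, ddx46, ddx5, dhx15 and dhx16 of splicing, ddx27 and ddx55 of ribosome biogenesis, and ddx19b of mRNA export, and the 1 was ddx19a, also of mRNA export. The splicing genes had a median difference of 0.47, with 9 of 11 positive, beside −0.02 over all genes. ddx17, which with ddx5 acts in splicing and as a cofactor of Drosha in mammals, gave 5.58, 5.17 and 5.55 in anti-mir-34 embryos against 4.24, 4.12 and 4.44 in mock embryos (1.17 ± 0.38, adjusted p = 0.223). ddx46, the counterpart of yeast Prp5 at the U2 snRNP, gave 7.84, 7.70 and 7.64 in anti-mir-34 embryos against 7.43, 6.95 and 7.08 in mock embryos (0.57 ± 0.20, adjusted p = 0.27). No difference of a single gene passed the test, and dhx16, the counterpart of yeast Prp2, differed by 0.63 ± 0.23 (adjusted p = 0.277).

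Other measures of the same arrays moved with these 7 hpf values. Mock replicate 2 was the lowest of the 6 arrays for 9 of the 11 splicing genes and for 13 of the 36 members. It was also the highest for 9 members, 0 of them splicing genes. Without it the median difference of the splicing genes was 0.24. The same array had the lowest median of the 19 gastrula markers, 4.55, where the anti-mir-34 arrays had 5.89 to 6.61 and the other mock arrays 5.80 and 6.56. The 15 maternal markers had medians of 6.35 to 7.59 in anti-mir-34 embryos against 6.95 to 8.57 in mock embryos. The 8 germ cell markers had 4.88 to 5.13 in anti-mir-34 embryos against 5.30 to 6.64 in mock embryos. Their part in the helicase values was not tested. Without mock replicate 3, ddx19b passed the threshold on the probe set used (1.27, adjusted p = 0.0363). There mock replicate 2, which stays in that fit, had 6.31, beside 7.71 and 7.91 in mock replicates 1 and 3. On the second ddx19b probe set the arrays overlapped at 7 hpf (0.02, adjusted p = 0.989).

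At 24 hpf limma again called 0 of 36 members, and 0.0% of all genes. There were 3 members with an unadjusted p below 0.05, against 4.39% of all genes. The anti-mir-34 arrays lay above all mock arrays for 6 members and below them for 1, beside 5.28% and 4.20% of all genes. The largest difference was that of ddx51, the counterpart of yeast Dbp6 in the large ribosomal subunit, with 5.28, 5.33 and 5.15 in anti-mir-34 embryos against 4.90, 3.53 and 3.99 in mock embryos (1.12 ± 0.37, adjusted p = 0.884). The other ddx51 probe sets gave 0.48, −0.00 and 0.10 at this age, with overlapping arrays and no call. The 12 ribosome biogenesis genes had a median difference of 0.31, with 10 positive, and the 11 splicing genes 0.01.

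The comparison of ages asks how helicase RNA changes from the maternal stage through gastrulation to organ formation, and the anti-mir-34 and mock embryos give it on separate arrays. Between 1 and 7 hpf, 12 members rose and 5 fell in anti-mir-34 embryos, and 6 rose and 2 fell in mock embryos. Over all genes, 19.8% rose and 25.4% fell in anti-mir-34 embryos, and 14.3% rose and 13.8% fell in mock embryos. The median step of the members was 0.38 in anti-mir-34 embryos and 0.14 in mock embryos, where the median of all genes was −0.33 in anti-mir-34 embryos and −0.22 in mock embryos. Called the same way in both injections were the rises of ddx5, ddx61 and dhx15 and the falls of ddx28 and ddx49. No member was called in opposite directions. How many of all genes were called the same way in both injections was not counted. Apart from ddx21, no member passed the test of a difference between the injections in this step in the fit over all arrays, and ddx3xa (adjusted p = 0.0597) passed under the alternatives given for it.

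Between 7 and 24 hpf falls outnumbered rises among the helicase genes: 17 members fell and 0 rose in anti-mir-34 embryos, and 17 fell and 2 rose in mock embryos. In limma at an unadjusted p below 0.05, 20 members differed in anti-mir-34 embryos, against 50.0% of all genes, and 21 in mock embryos, against 55.8% of all genes. Over all genes, 23.6% fell and 18.4% rose in anti-mir-34 embryos, and 28.4% fell and 20.5% rose in mock embryos. The median step was −0.74 in anti-mir-34 embryos and −0.73 in mock embryos, beside −0.16 in anti-mir-34 and −0.20 in mock embryos over all genes. The same 12 genes fell in both injections: ddx18, ddx19a, ddx21, ddx27, ddx28, ddx39aa, ddx39ab, ddx52, ddx55, ddx56, dhx29 and dhx32a. How many of all genes fell in both was not counted, so this number has no share to be set beside. The difference between the injections in this step was called for 0 members and 0.0% of all genes, with a smallest adjusted p of 0.452 (ddx17) and an unadjusted p below 0.05 for 5 members, against 9.56% of all genes. The log2 difference between the 3′ and the 5′ GAPDH control probe sets, a sign of RNA length, moved with age too. It was 1.21 to 1.77 in anti-mir-34 embryos and 0.99 to 1.72 in mock embryos at 24 hpf, and at 7 hpf it was −1.40 to 0.78 in anti-mir-34 embryos and −0.76 to 0.70 in mock embryos. Its part in the step was not tested.

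**Figure D3:**
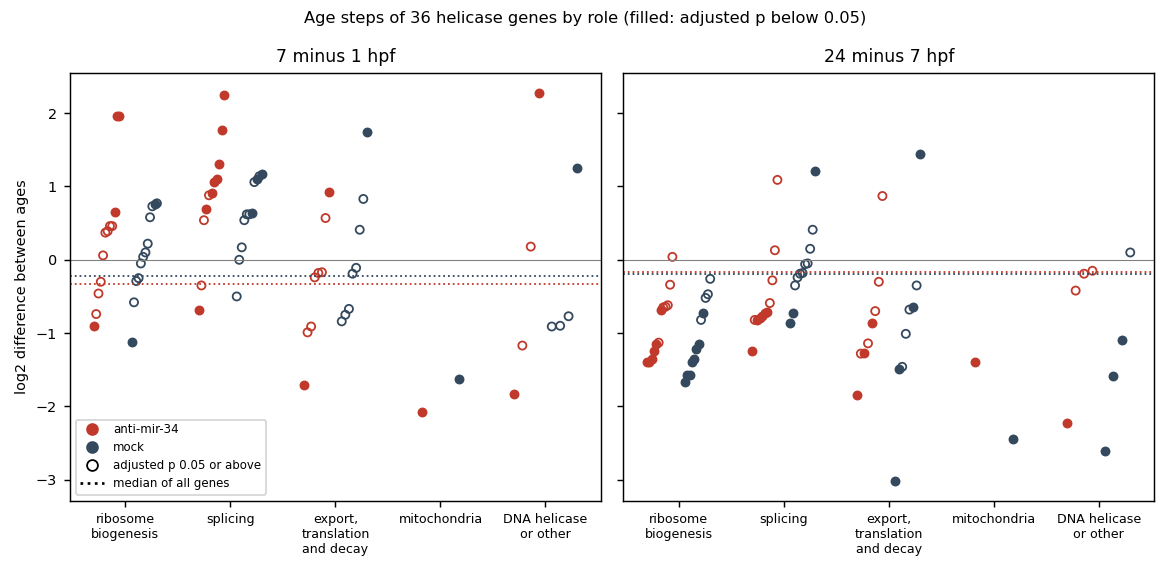
Log2 difference between ages of each of the 36 helicase genes by role group, 7 minus 1 hpf (left panel) and 24 minus 7 hpf (right panel), anti-mir-34 in red left of mock in grey. Filled points passed the test and dotted lines are medians of all genes. Ribosome biogenesis genes lie below 0 in the later step, with the 1 exception of ddx49 in anti-mir-34 embryos at 0.04, and splicing genes mostly above 0 in the earlier one.

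Of the 12 ribosome biogenesis genes, 6 fell between 7 and 24 hpf in anti-mir-34 embryos and 8 in mock embryos, and none rose. Of all genes 23.6% fell and 18.4% rose in anti-mir-34 embryos, and 28.4% fell and 20.5% rose in mock embryos. The differences of the group were negative for 11 genes in anti-mir-34 embryos and for all 12 in mock embryos. Its medians were −0.91 in anti-mir-34 and −1.18 in mock embryos. The genes of the group that fell in both injections were ddx18, ddx21, ddx27, ddx52, ddx55 and ddx56. The ddx21 falls were 0.69 in anti-mir-34 embryos (adjusted p = 0.0143) and 0.73 in mock embryos (adjusted p = 0.00812), and each was lost without its replicate 3 of 24 hpf (0.0593 in anti-mir-34 and 0.0516 in mock embryos). The counts in mock embryos were 7 or 8 without any single mock array of 7 hpf and 7 without mock replicate 2 of 24 hpf, where ddx54, the counterpart of yeast Dbp10, was lost (−0.57, adjusted p = 0.243, in place of −1.39, adjusted p = 0.0279). The ddx54 call was also lost without mock replicate 1 (adjusted p = 0.0711) or 3 (adjusted p = 0.0665) of 7 hpf. In the earlier step the same group gave 3 rises and 1 fall in anti-mir-34 embryos and 1 rise and 1 fall in mock embryos. Of the anti-mir-34 rises, that of ddx27 (0.65, adjusted p = 0.0402) was lost without any single array other than replicate 3 of 1 hpf (0.0582 to 0.147). It was also lost with only the 6 arrays compared (0.0666) and without the intensity trend (0.071). The fall of the group was that of ddx49 in both injections. Of all genes 19.8% rose and 25.4% fell in anti-mir-34 embryos, and 14.3% rose and 13.8% fell in mock embryos.

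The largest fall of the group in mock embryos was that of ddx56, the counterpart of yeast Dbp9 in the large ribosomal subunit. In anti-mir-34 embryos ddx56 gave 7.07, 7.58 and 6.65 at 1 hpf, 6.77, 6.37 and 6.76 at 7 hpf and 5.17, 5.50 and 5.19 at 24 hpf. In mock embryos it gave 6.68, 7.27 and 6.73 at 1 hpf, 6.70, 6.62 and 6.60 at 7 hpf and 5.29, 4.91 and 4.71 at 24 hpf. The values of 24 hpf lay below all earlier ones in both injections, while those of 1 and 7 hpf overlapped. From 7 to 24 hpf the step was −1.35 ± 0.26 in anti-mir-34 embryos (adjusted p = 0.000409) and −1.67 ± 0.26 in mock embryos (adjusted p = 3.22e-05). ddx55, the counterpart of yeast Spb4, gave 5.81, 5.88 and 5.52 at 1 hpf, 6.11, 6.14 and 6.11 at 7 hpf and 4.50, 5.04 and 4.66 at 24 hpf in anti-mir-34 embryos, and 5.0, 5.09 and 5.05 at 1 hpf, 5.88, 5.46 and 6.10 at 7 hpf and 4.90, 4.71 and 4.17 at 24 hpf in mock embryos. Its mean was highest at 7 hpf in both injections. The step from 1 to 7 hpf was not called in anti-mir-34 embryos (0.39 ± 0.27, adjusted p = 0.264) and was a rise in mock embryos (0.76 ± 0.27, adjusted p = 0.0415). That rise was lost without any single mock array of these ages other than replicate 2 of 7 hpf (adjusted p 0.0769 to 0.166). It then fell by 1.39 in anti-mir-34 embryos (adjusted p = 0.000375) and by 1.22 in mock embryos (adjusted p = 0.00092). The earlier mock rise was lost without any single array other than mock replicate 2 of 7 hpf (adjusted p 0.0769 to 0.166).

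ddx49, the counterpart of yeast Dbp8, followed another course. It gave 6.13, 5.60 and 5.42 at 1 hpf, 5.07, 4.14 and 5.22 at 7 hpf and 4.84, 4.91 and 4.80 at 24 hpf in anti-mir-34 embryos, and 5.70, 5.72 and 5.66 at 1 hpf, 4.68, 4.34 and 4.69 at 7 hpf and 4.13, 3.95 and 4.84 at 24 hpf in mock embryos. The values of 1 hpf were above all those of 7 hpf, and those of 24 hpf overlapped with 7 hpf. The earlier step was −0.90 ± 0.32 in anti-mir-34 embryos (adjusted p = 0.0298) and −1.12 ± 0.32 in mock embryos (adjusted p = 0.0136). The first of these was lost without anti-mir-34 replicate 1 of 1 hpf (−0.69, adjusted p = 0.133) or replicate 2 of 7 hpf (−0.57, adjusted p = 0.168). ddx47 rose in the earlier step by 1.96 ± 0.32 in anti-mir-34 embryos (adjusted p = 6.22e-05), with a mock step of 0.77 ± 0.32 (adjusted p = 0.0905), and the 2 steps did not pass the test of their difference (1.19 ± 0.45, adjusted p = 0.293). ddx31 and dhx37, the counterparts of yeast Dbp7 and Dhr1, were called in no age step. A second probe set of ddx31 did fall, by 2.18 in the later mock step (adjusted p = 0.00039) and by 1.82 in the earlier anti-mir-34 step (adjusted p = 0.00226).

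Other nucleolar genes also fell in the later step. The array carried 34 genes of the small subunit processome and other nucleolar partners. Between 7 and 24 hpf 27 fell (79.4%) and 0 rose in anti-mir-34 embryos, where 23.6% of all genes fell and 18.4% rose. In mock embryos 24 fell (70.6%) and 0 rose, where 28.4% of all genes fell and 20.5% rose. The median steps of the list were −1.05 in anti-mir-34 and −0.97 in mock embryos. Examples are the processome components utp3, with −2.33 in anti-mir-34 embryos and −3.05 in mock embryos, and rrp9, with −1.69 in anti-mir-34 embryos and −2.70 in mock embryos. In the earlier step 14 rose (41.2%) and 3 fell (8.82%) in anti-mir-34 embryos, beside 19.8% and 25.4% of all genes. In mock embryos 11 rose (32.4%) and 2 fell (5.88%), beside 14.3% and 13.8% of all genes. Among the rises was nop2, an rRNA methyltransferase (2.87 in anti-mir-34 embryos and 2.47 in mock embryos). At 1 hpf the anti-mir-34 embryos differed from mock embryos in 1 of these 34 genes, wdr75, which was lower (5.93 in anti-mir-34 against 7.48 in mock embryos, −1.55 ± 0.31, adjusted p = 0.015). That is 2.94% of the list, where 1.07% of all genes were called lower. The list was chosen with earlier results known.

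Of the 11 splicing genes, 7 rose and 1 fell between 1 and 7 hpf in anti-mir-34 embryos, and 3 rose and 0 fell in mock embryos. Of all genes 19.8% rose and 25.4% fell in anti-mir-34 embryos, and 14.3% rose and 13.8% fell in mock embryos. The median steps of the 11 genes were 0.91 in anti-mir-34 embryos and 0.62 in mock embryos, with 9 positive in each. Without mock replicate 2 of 7 hpf, the array that was lowest for 9 of these genes, 5 splicing genes rose in mock embryos, and the total over the members was 9 rises and 2 falls. ddx42 (1.45, adjusted p = 0.0198) and ddx46 (0.65, adjusted p = 0.0365) were the 2 splicing genes gained. Between 7 and 24 hpf 6 splicing genes fell and 0 rose in anti-mir-34 embryos, and 2 fell and 1 rose in mock embryos. Their medians were −0.72 in anti-mir-34 and −0.18 in mock embryos. Of all genes 23.6% fell and 18.4% rose in anti-mir-34 embryos, and 28.4% fell and 20.5% rose in mock embryos. Rises of splicing genes in the earlier step were thus called in both injections, in more genes in anti-mir-34 embryos. The difference in number was not tested. The rises of ddx39ab in anti-mir-34 embryos and of dhx15 in mock embryos were lost without most single arrays, as given below.

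ddx5 gave 8.25, 7.48 and 8.36 at 1 hpf, 9.10, 9.13 and 9.02 at 7 hpf and 8.28, 8.2 and 8.40 at 24 hpf in anti-mir-34 embryos. Its mock values were 7.78, 6.84 and 7.5 at 1 hpf, 8.61, 8.22 and 8.57 at 7 hpf and 8.05, 8.47 and 8.35 at 24 hpf. All arrays of 7 hpf were above all those of 1 hpf in both injections. The steps were 1.06 ± 0.25 in anti-mir-34 embryos (adjusted p = 0.0018) and 1.1 ± 0.25 in mock embryos (adjusted p = 0.00236). The later step was a fall in anti-mir-34 embryos (−0.79 ± 0.25, adjusted p = 0.0157, and 0.0559 without replicate 2 of 24 hpf) and was not called in mock embryos (−0.18 ± 0.25, adjusted p = 0.592).

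ddx42, a helicase found with the U2 snRNP in human cells, had the largest step of a splicing gene. It gave 2.81, 4.79 and 3.99 at 1 hpf, 6.34, 5.76 and 6.23 at 7 hpf and 5.26, 5.75 and 5.56 at 24 hpf in anti-mir-34 embryos, and 4.33, 4.77 and 4.34 at 1 hpf, 5.50, 4.76 and 6.36 at 7 hpf and 5.07, 4.95 and 5.54 at 24 hpf in mock embryos. The anti-mir-34 arrays of 7 hpf lay above all those of 1 hpf, and the mock arrays overlapped. The step from 1 to 7 hpf was a rise in anti-mir-34 embryos (2.25 ± 0.42, adjusted p = 0.000261, and 1.43 with 16 added to the linear signal) and was not called in mock embryos (1.06 ± 0.42, adjusted p = 0.0763). The difference between these steps did not pass (1.19 ± 0.60, adjusted p = 0.448).

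ddx17, the paralogue of ddx5, gave 4.32, 2.95 and 3.71 at 1 hpf, 5.58, 5.17 and 5.55 at 7 hpf and 5.54, 4.84 and 5.07 at 24 hpf in anti-mir-34 embryos, and 4.06, 2.84 and 4.02 at 1 hpf, 4.24, 4.12 and 4.44 at 7 hpf and 5.75, 5.50 and 5.18 at 24 hpf in mock embryos. On the probe set used, anti-mir-34 embryos reached the higher level at 7 hpf (1.77 ± 0.38, adjusted p = 0.000887). Mock embryos reached it at 24 hpf (1.21 ± 0.38, adjusted p = 0.0138, and 0.0544 without replicate 1 of 24 hpf). The other steps were not called, at −0.28 in anti-mir-34 embryos from 7 to 24 hpf and 0.62 in mock embryos from 1 to 7 hpf. The difference between the injections in the later step was −1.49 ± 0.54 and did not pass (adjusted p = 0.452). A second ddx17 probe set was called in no age step. Between 1 and 7 hpf it gave 1.33 in anti-mir-34 embryos and 1.60 in mock embryos, with all 7 hpf arrays higher in each. Between 7 and 24 hpf it gave −0.01 in anti-mir-34 embryos and 1.45 in mock embryos. dhx15, the counterpart of yeast Prp43, which takes the spliceosome apart, rose between 1 and 7 hpf by 0.91 ± 0.20 in anti-mir-34 embryos (adjusted p = 0.00115) and by 0.64 ± 0.20 in mock embryos (adjusted p = 0.0255). The mock rise of dhx15 was lost with only the 6 arrays compared (adjusted p = 0.112), and without any single array other than mock replicate 2 of 7 hpf (0.051 to 0.125). ddx20, the Gemin3 of the SMN complex, fell by 0.68 in the earlier step in anti-mir-34 embryos (adjusted p = 0.0277), with −0.50 in mock embryos (adjusted p = 0.138), and was lost without any of 4 single arrays (0.0528 to 0.0823). ddx23, the counterpart of yeast Prp28, was called in no age step, with steps between −0.82 and 0.00.

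The 3 UAP56-like genes ddx39aa, ddx39ab and ddx39b are counterparts of yeast Sub2, which acts in splicing and export. ddx39aa gave 8.34, 9.18 and 9.51 at 1 hpf, 9.90, 9.40 and 9.36 at 7 hpf and 8.81, 8.70 and 8.87 at 24 hpf in anti-mir-34 embryos, and 8.2, 8.64 and 8.44 at 1 hpf, 9.55, 9.65 and 9.58 at 7 hpf and 8.78, 8.63 and 8.81 at 24 hpf in mock embryos. It rose by 1.17 ± 0.23 in the earlier mock step (adjusted p = 0.000876), where anti-mir-34 embryos had 0.54 ± 0.23 (adjusted p = 0.0741), and fell by 0.76 in anti-mir-34 embryos and by 0.86 in mock embryos in the later step (adjusted p = 0.0154 in anti-mir-34 and 0.00552 in mock embryos). The later fall in anti-mir-34 embryos was lost without replicate 1 of 7 hpf (0.0934) or replicate 2 of 24 hpf (0.0566). The anti-mir-34 replicates of 1 hpf were spread, with replicate 1 lowest. Without replicate 3 of that group its earlier step was 0.79 (adjusted p = 0.0121).

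ddx39ab gave 9.52, 9.54 and 9.95 at 1 hpf, 10.24, 10.49 and 10.33 at 7 hpf and 9.11, 9.10 and 9.11 at 24 hpf in anti-mir-34 embryos, and 9.65, 9.20 and 10.42 at 1 hpf, 9.97, 9.40 and 10.41 at 7 hpf and 9.09, 9.21 and 9.28 at 24 hpf in mock embryos. Its earlier step was a rise in anti-mir-34 embryos (0.69, adjusted p = 0.0403) and was not called in mock embryos (0.17, adjusted p = 0.675). That rise was lost without the intensity trend (0.099), and without any single array other than anti-mir-34 replicate 3 of 1 hpf (0.0621 to 0.108). The later step of ddx39ab was a fall in both, of 1.25 in anti-mir-34 embryos (adjusted p = 0.000798) and of 0.73 in mock embryos (adjusted p = 0.0275, and 0.051 to 0.155 without any single array other than mock replicate 2 of 7 hpf). ddx39b gave 3.61, 3.98 and 4.18 at 1 hpf, 5.05, 4.80 and 4.56 at 7 hpf and 5.86, 5.61 and 6.19 at 24 hpf in anti-mir-34 embryos, and 3.09, 3.70 and 3.81 at 1 hpf, 4.70, 4.36 and 4.99 at 7 hpf and 6.06, 3.16 and 5.26 at 24 hpf in mock embryos. The anti-mir-34 values were higher at each later age without overlap, but limma called neither step (0.88, adjusted p = 0.166, and 1.09, adjusted p = 0.0935). The later of these steps was called with 16 added (0.78, adjusted p = 0.0364) and with only the 6 arrays compared (0.00727). The earlier mock step (1.14, adjusted p = 0.0987) was called with only the 6 arrays compared (0.0458). Mock replicate 2 of 24 hpf, the array with the high maternal markers, was far below its group in ddx39b. Without it the later mock step was 0.98 (adjusted p = 0.0398) in place of 0.15 (adjusted p = 0.841).

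Partners of these genes in the exon junction complex and the TREX export complex were also on the array, with 12 genes. Between 7 and 24 hpf 8 fell (66.7%) and 0 rose in anti-mir-34 embryos, where 23.6% of all genes fell and 18.4% rose. In mock embryos 9 fell (75.0%) and 0 rose, where 28.4% of all genes fell and 20.5% rose. An example is alyref, an export adaptor (−1.41 ± 0.19 in anti-mir-34 embryos and −1.44 ± 0.19 in mock embryos). Between 1 and 7 hpf 3 rose (25.0%) and 1 fell (8.33%) in each injection. Of all genes 19.8% rose and 25.4% fell in anti-mir-34 embryos, and 14.3% rose and 13.8% fell in mock embryos. At 1 hpf 1 gene of the list differed after anti-mir-34 injection: eif4a3, the DEAD box helicase of the exon junction complex that the symbol rule leaves out, was higher (8.69 in anti-mir-34 against 7.18 in mock embryos, 1.51 ± 0.20, adjusted p = 0.000914). Its relative eif4a1a, a translation initiation helicase, was higher as well (7.67 in anti-mir-34 against 6.37 in mock embryos, 1.3 ± 0.20, adjusted p = 0.00236), 1 of 9 other RNA helicase genes measured. Of 13 translation initiation partners, 2 rose, eif4e3 (2.46 ± 0.33, adjusted p = 0.00096) and pdcd4a (0.81 ± 0.20, adjusted p = 0.047). These calls make up 8.33% of the exon junction and export list, 11.1% of the other helicases and 15.4% of the translation partners. Of all genes 0.512% were called higher. The lists are small, with 12, 9 and 13 genes, and were chosen with earlier results known. At 1 hpf limma called 0 of 21 decay partners of ddx6 and 0 of 15 partners of DEAH box helicases, 2 lists described below. At 7 and 24 hpf limma called 0 genes of these lists between the injections, against 0.0227% of all genes at 7 hpf and 0.0% at 24 hpf.

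Among the 8 genes of export, translation and decay, 3 fell and 0 rose between 7 and 24 hpf in anti-mir-34 embryos. In mock embryos 3 fell and 1 rose. Of all genes 23.6% fell and 18.4% rose in anti-mir-34 embryos, and 28.4% fell and 20.5% rose in mock embryos. The medians of the 8 genes were −1.0 in anti-mir-34 and −0.85 in mock embryos. ddx19a, 1 of 2 counterparts of yeast Dbp5, which acts in mRNA export at the nuclear pore, had the largest fall. It gave 5.0, 4.68 and 5.36 at 1 hpf, 2.98, 3.78 and 3.16 at 7 hpf and 0.94, 1.29 and 2.17 at 24 hpf in anti-mir-34 embryos, and 4.15, 4.66 and 4.30 at 1 hpf, 3.88, 4.36 and 4.55 at 7 hpf and 0.54, 1.76 and 1.43 at 24 hpf in mock embryos. All arrays of 24 hpf were below all earlier ones in both injections. The later step was −1.84 ± 0.44 in anti-mir-34 embryos (adjusted p = 0.00262) and −3.02 ± 0.44 in mock embryos (adjusted p = 1.6e-05). The earlier step was a fall of 1.71 in anti-mir-34 embryos (adjusted p = 0.0042) and −0.11 in mock embryos (adjusted p = 0.888), and the difference between these steps did not pass (−1.60 ± 0.63, adjusted p = 0.305). These are dim signals at 24 hpf, and with 16 added to the linear signal the later steps were −0.46 in anti-mir-34 embryos and −0.93 in mock embryos, both called.

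The 2 probe sets of ddx19b disagreed. The one used gave 7.5, 7.00 and 7.55 at 1 hpf, 8.30, 8.25 and 8.31 at 7 hpf and 7.34, 6.77 and 6.92 at 24 hpf in anti-mir-34 embryos, and 7.16, 6.73 and 6.80 at 1 hpf, 7.71, 6.31 and 7.91 at 7 hpf and 6.91, 6.88 and 7.09 at 24 hpf in mock embryos. The other gave 8.59, 7.75 and 8.82 at 1 hpf, 8.23, 8.37 and 8.0 at 7 hpf and 5.49, 3.86 and 4.97 at 24 hpf in anti-mir-34 embryos, and 7.89, 7.18 and 8.06 at 1 hpf, 8.24, 7.92 and 8.39 at 7 hpf and 4.66, 5.65 and 5.68 at 24 hpf in mock embryos. The second fell in the later step in both, by 3.43 in anti-mir-34 embryos (adjusted p = 5.18e-07) and by 2.85 in mock embryos (adjusted p = 3.93e-06). The first fell by 1.27 in anti-mir-34 embryos (adjusted p = 0.00267), and its mock step of −0.35 was not called (adjusted p = 0.381). Mock replicate 2 of 7 hpf was more than 1 log2 unit below its group on the first probe set, and without it the later mock step was −0.85 (adjusted p = 0.00707). Whether the probe sets read different transcripts was not tested.

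**Figure D4:**
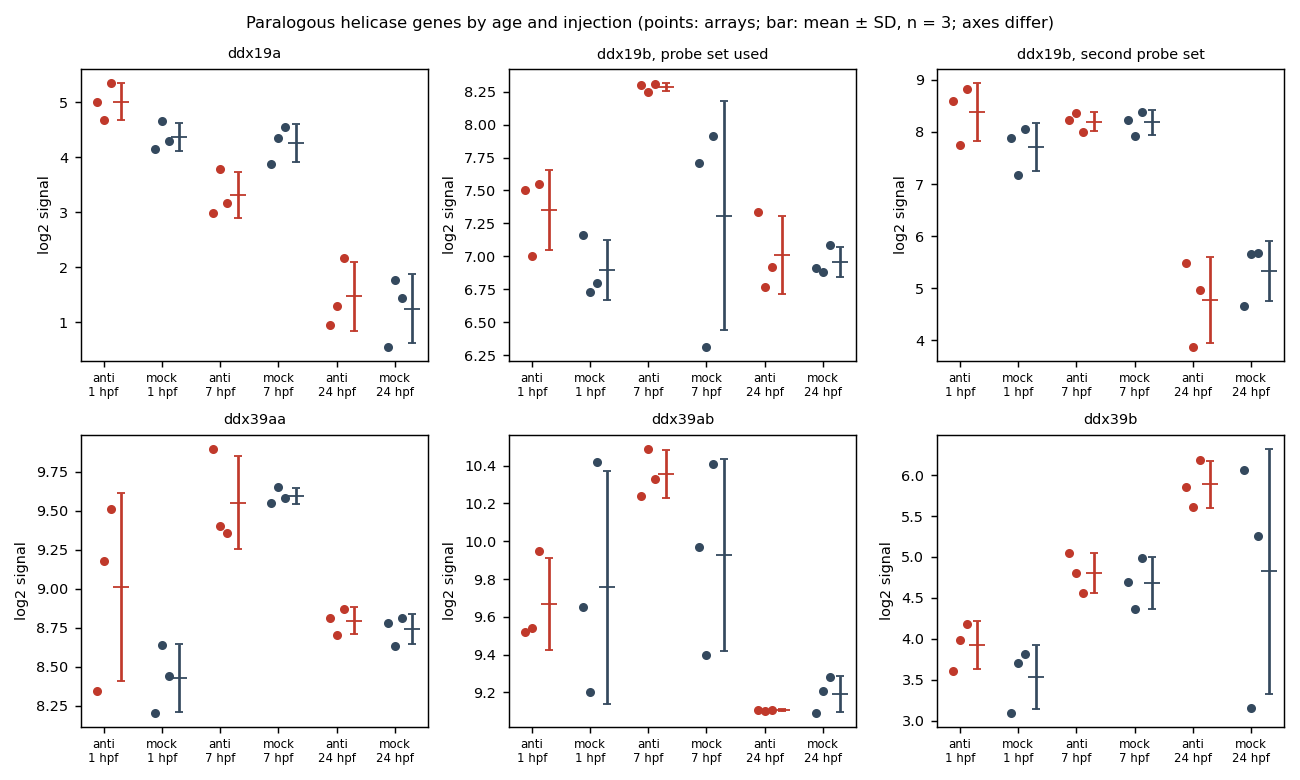
Log2 signal on each array (points) with group mean and SD (bar, n = 3) for ddx19a, the 2 probe sets of ddx19b, and ddx39aa, ddx39ab and ddx39b, anti-mir-34 in red left of mock in grey at 1, 7 and 24 hpf. Axes differ between panels. ddx19a and the second ddx19b probe set are lowest at 24 hpf, and ddx39b has 1 mock array of 24 hpf at 3.16.

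ddx3xb gave 9.28, 9.17 and 8.75 in anti-mir-34 embryos and 9.72, 10.29 and 9.02 in mock embryos at 7 hpf, and 8.28, 8.50 and 8.31 in anti-mir-34 embryos and 8.16, 8.29 and 8.10 in mock embryos at 24 hpf. It fell between these ages by 1.49 in mock embryos (adjusted p = 0.000532), and the anti-mir-34 step was −0.70 ± 0.31 (adjusted p = 0.0815). The second ddx3xb probe set gave −1.54 in anti-mir-34 embryos (adjusted p = 0.0282) and −0.95 in mock embryos (adjusted p = 0.16). Each probe set thus called the fall in 1 injection and had the same sign in the other. Between 1 and 7 hpf the probe set used gave 0.57 in anti-mir-34 embryos (adjusted p = 0.149 in limma) and 0.83 in mock embryos (adjusted p = 0.0538). The mock step passed with 16 added (0.0457), with the replicate block (0.0407) and without mock replicate 3 of 7 hpf (0.0122), among others. The second probe set rose by 1.67 in anti-mir-34 embryos (0.0168) and gave 0.14 in mock embryos (0.88).

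ddx1, part of the tRNA ligase complex in human cells, went the other way. Its signals were 3.31, 2.77 and 3.68 at 1 hpf, 2.22, 2.76 and 2.03 at 7 hpf and 3.97, 1.84 and 3.80 at 24 hpf in anti-mir-34 embryos, and 3.31, 2.97 and 3.24 at 1 hpf, 2.47, 2.12 and 2.41 at 7 hpf and 4.23, 2.78 and 4.36 at 24 hpf in mock embryos. It rose between 7 and 24 hpf in mock embryos (1.45 ± 0.55, adjusted p = 0.0366), and the anti-mir-34 step was 0.87 ± 0.55 (adjusted p = 0.236). Replicate 2 was the lowest array of 24 hpf in each injection. The mock call was lost without any single array other than replicate 2 of 24 hpf (adjusted p 0.0609 to 0.144), and the anti-mir-34 step was 1.55 (adjusted p = 0.0284) without replicate 2 of 24 hpf. dhx29, a helicase that in human cells helps ribosomes scan structured leaders, fell in the later step by 0.86 in anti-mir-34 embryos (adjusted p = 0.0115, and 0.0522 without replicate 2 of 24 hpf) and by 0.65 in mock embryos (adjusted p = 0.0452, and 0.0638 to 0.238 without any single array other than mock replicate 3 of 7 hpf). ddx6, of decapping and P-bodies, and dhx34, of nonsense-mediated decay, were called in no age step on the probe sets used, where both were dim. The ddx6 probe set used gave at most 2.52 on any array.

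A second probe set of ddx6 gave 3.31, 1.57 and 2.92 at 1 hpf and 1.1, 2.35 and 0.61 at 7 hpf in anti-mir-34 embryos, and 4.42, 3.66 and 4.04 at 1 hpf and −1.72, 0.5 and 0.36 at 7 hpf in mock embryos. It fell by 4.32 in this step in mock embryos (adjusted p = 0.00197), with −1.24 in anti-mir-34 embryos (adjusted p = 0.319). With the 2 probe sets averaged, ddx6 was called as a fall in the mock step (−2.50, adjusted p = 0.00759), so that its call depends on the probe set.

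Of 21 P-body and deadenylation partners of ddx6 on the array, 5 rose (23.8%) and 5 fell (23.8%) between 1 and 7 hpf in anti-mir-34 embryos, near the 19.8% and 25.4% of all genes. In mock embryos 7 rose (33.3%) and 2 fell (9.52%), beside 14.3% and 13.8% of all genes. The 2 largest called differences of the list in this step were rises of the same 2 decapping genes in both injections. The gene edc3 rose by 2.30 in anti-mir-34 embryos and 1.61 in mock embryos, and dcp2 by 1.88 in anti-mir-34 embryos and 1.66 in mock embryos. Between 7 and 24 hpf 6 fell (28.6%) and 0 rose in anti-mir-34 embryos, where 23.6% of all genes fell, and 8 fell (38.1%) and 1 rose in mock embryos, where 28.4% of all genes fell. The largest fall was that of lsm14b (−5.44 ± 0.41 in anti-mir-34 embryos and −5.40 ± 0.41 in mock embryos).

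The mitochondrial helicase gene ddx28, which in human cells serves mitochondrial ribosome assembly, was the 1 member called in all 4 age steps. Its signals were 6.13, 6.01 and 6.32 at 1 hpf, 4.27, 4.0 and 3.94 at 7 hpf and 2.69, 2.58 and 2.73 at 24 hpf in anti-mir-34 embryos, and 6.36, 6.57 and 6.13 at 1 hpf, 4.95, 5.17 and 4.07 at 7 hpf and 2.24, 2.52 and 2.12 at 24 hpf in mock embryos. No array of a later age reached any array of an earlier age in either injection. It fell by 2.08 in anti-mir-34 embryos (adjusted p = 2.69e-05) and by 1.62 in mock embryos (adjusted p = 0.000677) in the earlier step. In the later step it fell by 1.40 in anti-mir-34 embryos (adjusted p = 0.0016) and by 2.44 in mock embryos (adjusted p = 3.76e-06). The difference between the injections did not pass in the later step (1.04 ± 0.45, adjusted p = 0.534). The signals of 24 hpf were dim, and with 16 added to the linear signal the later steps were −0.55 in anti-mir-34 embryos and −1.04 in mock embryos, both called.

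Of the 4 remaining genes, ddx61 rose and dhx32a and dhx57 fell with age. ddx61 gave 5.88, 6.76 and 7.43 at 1 hpf, 8.98, 8.81 and 9.10 at 7 hpf and 8.61, 8.53 and 8.51 at 24 hpf in anti-mir-34 embryos, and 6.95, 7.35 and 7.28 at 1 hpf, 8.46, 8.01 and 8.87 at 7 hpf and 8.65, 8.57 and 8.41 at 24 hpf in mock embryos. It rose between 1 and 7 hpf by 2.28 ± 0.29 in anti-mir-34 embryos (adjusted p = 3e-06) and by 1.25 ± 0.29 in mock embryos (adjusted p = 0.00272). On the probe set used, its later steps were not called, at −0.42 ± 0.29 in anti-mir-34 embryos and 0.10 ± 0.29 in mock embryos. A second ddx61 probe set rose from 1 to 7 hpf by 2.27 in anti-mir-34 embryos (adjusted p = 0.000145) and by 1.51 in mock embryos (adjusted p = 0.00867). From 7 to 24 hpf it rose again in mock embryos (1.03, adjusted p = 0.0451) and was not called in anti-mir-34 embryos (−0.15, adjusted p = 0.809). The third was called in no age step.

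dhx32a gave 6.56, 5.59 and 6.36 at 1 hpf, 5.22, 4.12 and 5.66 at 7 hpf and 2.47, 3.22 and 2.63 at 24 hpf in anti-mir-34 embryos, and 5.97, 5.38 and 6.11 at 1 hpf, 5.15, 5.01 and 4.99 at 7 hpf and 3.18, 3.59 and 0.55 at 24 hpf in mock embryos. It fell between 7 and 24 hpf by 2.23 in anti-mir-34 embryos (adjusted p = 0.00427) and by 2.61 in mock embryos (adjusted p = 0.000909), with all arrays of 24 hpf below those of 7 hpf. With 16 added to the linear signal these steps were −1.10 in anti-mir-34 embryos and −1.09 in mock embryos, both called. dhx57 gave 4.02, 4.56 and 4.15 at 1 hpf, 1.5, 3.22 and 2.51 at 7 hpf and 1.87, 2.61 and 2.31 at 24 hpf in anti-mir-34 embryos, and 3.76, 4.46 and 4.25 at 1 hpf, 3.27, 3.52 and 2.97 at 7 hpf and 1.84, 1.70 and 1.44 at 24 hpf in mock embryos. Its fall was called in the earlier step in anti-mir-34 embryos (−1.83 ± 0.45, adjusted p = 0.00299) and in the later step in mock embryos (−1.59 ± 0.45, adjusted p = 0.00753). The other steps of dhx57 were −0.15 in anti-mir-34 embryos from 7 to 24 hpf and −0.90 in mock embryos from 1 to 7 hpf, and neither was called. With 16 added, the called dhx57 steps were −0.69 in anti-mir-34 embryos and −0.42 in mock embryos, and the earlier mock step was called too (−0.41, adjusted p = 0.0296). ddx11 fell between 7 and 24 hpf in mock embryos (−1.1 ± 0.39, adjusted p = 0.0273, and 0.0815 to 0.112 without mock replicate 2 of 24 hpf or replicate 1 or 2 of 7 hpf), where the anti-mir-34 step was −0.19 ± 0.39 (adjusted p = 0.755).

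Over all 36 genes, on the probe set used for each, 6 were called in none of the 4 age steps (ddx23, ddx31, ddx39b, ddx6, dhx34 and dhx37), 8 in 1, 14 in 2, 7 in 3 and 1 in 4. Among all 8793 genes, 3971 were called in the earlier and 3690 in the later step in anti-mir-34 embryos. In mock embryos these were 2471 and 4301. The tally over the 4 steps was not made for all genes, so it does not set the members apart. The 15 further probe sets of the 11 genes with more than 1 had the same sign as the probe set used in 46 of 60 age steps. Both were called in 7 of these, in the same direction each time, and in 10 the further probe set alone was called. Other steps were called on the probe set used alone, so those calls were not repeated. An example is ddx18 between 7 and 24 hpf. Its second probe set gave −0.72 in anti-mir-34 embryos (adjusted p = 0.294 in limma) and −0.7 in mock embryos (adjusted p = 0.291). With 16 added to the linear signal, 16 of the 61 called age steps were more than 1.5 times smaller, and all 61 were still called.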

How the data were processed

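RNA of 18 samples was hybridized to Affymetrix arrays, 1 array per sample. The values deposited by the authors were read as log2 signals from their range, for 15617 probe sets. The submitters' processing notes name GCOS, and the sources used here do not give the normalization method. The nearly equal array distributions (medians 3.67 to 3.68) leave only differences relative to the other probe sets. No detection calls were used, and the number of arrays limits the precision. The platform annotation gives 1 gene symbol to 10795 probe sets, several to 135 and none to 4572.

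All values were fitted in limma 3.58.1 (R 4.3.3) with 1 mean per group over all 18 arrays and intensity-trended moderated variances (12 residual and 8.06 prior degrees of freedom). The p-values were adjusted by the Benjamini-Hochberg method over 15502 probe sets, leaving out 115 control probe sets, and a gene was called at an adjusted p below 0.05. The fit was tested on simulated data. No member had a missing value. Members, roles and lists were chosen with earlier results of these data known. Genes called between injections, the 5 largest rises and falls of each mock age step, the gene of each role that moved most in the mock steps, and paralogues have full values. Alternatives were an offset of 16, a filter at a log2 value of 5, repeated quantile normalization, only the arrays compared, no trend, a replicate block, averaged probe sets and leaving out each array.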

Additional observations from a re-analysis of the deposited data

Results flagged for a closer look

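The effect of anti-mir-34 injection on ddx21 differed between ages. The test of an injection by age interaction gave an adjusted p of 0.035 in limma. The effect at 7 hpf minus that at 1 hpf was 1.73 on the log2 scale (adjusted p = 0.018). It was lost without the intensity trend (adjusted p = 0.12), and without anti-mir-34 replicate 1 (0.0773) or 3 (0.0535) of 7 hpf, mock replicate 1 of 1 hpf (0.0705) or mock replicate 2 of 7 hpf (0.0505), with its sign kept each time.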

How the results depend on the processing

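At 1 hpf the count of helicase genes called between injections, 2 as reported, was 0 with only the arrays compared, 1 without the intensity trend, 1 with averaged probe sets, and 1 to 4 without single arrays. At 7 hpf it was 0 to 1 without single arrays, and at 24 hpf 0 to 0. The interaction count of 1 became 0 without the intensity trend and 0 to 1 without single arrays. For mock embryos from 1 to 7 hpf the count of 8 became 13 with 16 added to the signals and 6 to 11 without single arrays. The other age steps gave 14 to 17 (mock, 7 to 24 hpf), 13 to 17 (anti-mir-34, 1 to 7 hpf) and 15 to 17 (anti-mir-34, 7 to 24 hpf) without single arrays. The labels do not say what the replicate numbers share. Of 45 same-numbered pairs of arrays, 3 had deviations from their group means correlated above 0.1, so the numbers were not taken as pairs. In the 9 pairs of the same age, which held all 3 of these, the correlations were 0.0112 to 0.28. In all 9 the anti-mir-34 array correlated best with the mock array of its own number, a hint from the data and not from the design. The replicate block has 1 shift per number, shared by all ages. It does not model pairs within an age, and such pairs were not tested. A fit with the replicate block gave 2, 0 and 0 calls between injections, 10 and 19 in the mock steps, 17 and 18 in the anti-mir-34 steps and 1 in the interaction, and it called the ddx3xa difference between the injections in the step from 1 to 7 hpf (−1.98, adjusted p = 0.0481 in place of 0.0597). Of 530 values for 41 single-gene results under the alternatives, 488 kept direction and side of the threshold, 42 kept the direction only and 0 reversed. The 41 results are all calls of the main fit, so calls gained under an alternative are outside this count. Only the arrays compared, no trend, the replicate block and the filter leave the difference itself unchanged. Their values could not reverse. The cause of the changes was not tested. The size of steps on dim probe sets depends on the offset: with 16 added, 16 of 61 called age steps were more than 1.5 times smaller. At 7 hpf 13 members in anti-mir-34 embryos and 14 in mock embryos had means below 5. The median of these means over the members was 6.0 in anti-mir-34 and 5.72 in mock embryos. Over all genes it was lower, 4.61 in anti-mir-34 and 4.69 in mock embryos.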

Other observations

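The array also carried 5 other genes of the microRNA machinery, for which ddx5 and ddx17 are known as cofactors in mammals. Between 1 and 7 hpf drosha, the nuclease of the microprocessor, fell by 2.93 in anti-mir-34 embryos (adjusted p = 6.07e-06 in limma) and fell by 3.30 in mock embryos (adjusted p = 2.73e-06). The RNA-binding partner of drosha, dgcr8, rose between 7 and 24 hpf in anti-mir-34 embryos (0.82 ± 0.29, adjusted p = 0.0315) and was not called in mock embryos. tnrc6c2 rose in the same step by 2.67 in anti-mir-34 embryos and by 2.28 in mock embryos. Between injections limma called 0 of the 5 at any age, against 1.58% of all genes at 1 hpf, 0.0227% at 7 hpf and 0.0% at 24 hpf.

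Among 15 G-patch proteins and other partners of DEAH box helicases, 7 fell and 1 rose between 7 and 24 hpf in anti-mir-34 embryos, and 8 fell and 3 rose in mock embryos. In the same step 23.6% of all genes fell and 18.4% rose in anti-mir-34 embryos, and 28.4% fell and 20.5% rose in mock embryos. gpatch4 fell by 2.15 in anti-mir-34 embryos and fell by 2.94 in mock embryos. Of 5 genes of RIG-I-like signalling, 1 rose in anti-mir-34 embryos and 2 in mock embryos between 1 and 7 hpf. Of all genes 19.8% rose in anti-mir-34 and 14.3% in mock embryos. The list medians were 0.82 in anti-mir-34 and −0.07 in mock embryos. isg15 rose by 4.72 in anti-mir-34 and 4.60 in mock embryos, and trim25 by 2.39 in mock embryos. Between 7 and 24 hpf isg15 alone was called, with falls of 5.02 in anti-mir-34 and 4.58 in mock embryos. Of all genes 23.6% fell in anti-mir-34 and 28.4% in mock embryos.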
